A study of Homo sapiens with 4 samples.

Results

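The Mediator complex was examined through the mRNA levels of its 30 MED-named subunits in 22Rv1 cells, a human line derived from castration-resistant prostate cancer. The members were taken by gene symbol, and all 30 of 30 listed were found among the 63241 genes of the deposited table. Cells of the JMC45 group received that compound at 40 nM for 12 h, and cells of the Vehicle group received DMSO alone for 12 h. There were 2 libraries of poly(A)-selected RNA in each group. The submitters describe JMC45 as targeting CDK9, and the series title calls its compound a CDK9 degrader named D45, taken here to be the same one. No other agent, genotype or time was part of the comparison, and the cells are a single established line.

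Mediator is the large assembly that carries signals from transcription factors bound at enhancers to RNA polymerase II at promoters. Its head and middle modules contact the polymerase and the initiation factors, its tail receives many activators, MED14 runs through all of these as a backbone, and a detachable kinase module built on MED12 and MED13 holds CDK8 or CDK19 with cyclin C. In prostate cancer cells MED1 is known as a partner of the androgen receptor. MED26 is known as a docking site for elongation complexes that contain P-TEFb, whose kinase is CDK9.

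Levels are in TPM (transcript abundance scaled by gene length and to a common library total), so they can be set side by side between genes. Depth is unknown, and no interval from counting can be given. A TPM value is relative, and in bulk RNA fewer cells of a type and less RNA per cell cannot be told apart. Nothing in the labels says whether the 2 libraries of a group were grown apart, and a p-value here reflects library-to-library spread alone, possibly technical. The luminal prostate markers KRT8, KRT18, KRT19, HOXB13, FOLH1 and SPDEF all had a mean of at least 1 TPM, and the summed level of these 6 was 507 to 522 TPM in JMC45 and 932 to 953 TPM in Vehicle. FOLH1 (log2 change 0.07, not called) and KRT8 (-0.32) carried most of the JMC45 sum, while KRT18 (-2.26), KRT19 (-3.39), HOXB13 (-3.10) and SPDEF (-2.92) fell, and the median change of the 6 was -2.59. The 4 leukocyte markers summed to at most 1.60 TPM in JMC45 and 0.90 TPM in Vehicle, with CD3E at 0 in all 4 libraries, and the 3 endothelial markers summed to at most 0.01 TPM in either group, with CDH5 at 0. The 4 fibroblast markers summed to 6.20 to 6.88 TPM in JMC45 and 7.11 to 7.59 TPM in Vehicle, with LUM the highest of them (up to 5.36 TPM). The part of these other cell markers in the results was not tested.

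The promoters of the members at both ends of the order of changes are shown first, because the results below turn on these genes. Of the 30 members, 22 had a promoter entry in RefSeq, build GRCh38.p14, and MED7 and MED15 had 2 entries each. Shown are the 250 bases upstream of the start, 5′ to 3′ on the gene's strand, for the 2 members with the largest and the 2 with the smallest decrease among those with a single entry. They are MED17 (chr11:93784032-93784281, plus strand), MED11 (chr17:4731178-4731427, plus strand), MED12 (chrX:71118346-71118595, plus strand) and MED24 (chr17:40054409-40054658, minus strand). Capitals mark matches on either strand to the 5 motifs searched, which were the TATA box (TATAAA), the GC box (GGGCGG), the CCAAT box (CCAAT), the ETS core (CCGGAAG) and the NRF1 motif (GCGC and TGCGC with 1 base of any kind between them). No printed match overlaps a match to another of these motifs.
MED17: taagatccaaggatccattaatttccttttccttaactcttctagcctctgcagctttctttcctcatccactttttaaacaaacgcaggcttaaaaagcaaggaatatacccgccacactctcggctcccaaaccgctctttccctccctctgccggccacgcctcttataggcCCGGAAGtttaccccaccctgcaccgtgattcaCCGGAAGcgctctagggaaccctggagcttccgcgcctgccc
MED11: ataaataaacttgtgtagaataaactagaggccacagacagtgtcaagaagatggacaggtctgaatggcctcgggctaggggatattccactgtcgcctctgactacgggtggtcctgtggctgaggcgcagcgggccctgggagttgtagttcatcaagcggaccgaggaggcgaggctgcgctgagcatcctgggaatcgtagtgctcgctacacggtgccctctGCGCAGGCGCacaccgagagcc
MED12: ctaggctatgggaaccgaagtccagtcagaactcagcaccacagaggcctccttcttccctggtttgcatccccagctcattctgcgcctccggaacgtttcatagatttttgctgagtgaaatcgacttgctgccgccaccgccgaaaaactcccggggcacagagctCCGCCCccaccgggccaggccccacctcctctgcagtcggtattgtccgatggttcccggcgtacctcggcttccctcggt
MED24: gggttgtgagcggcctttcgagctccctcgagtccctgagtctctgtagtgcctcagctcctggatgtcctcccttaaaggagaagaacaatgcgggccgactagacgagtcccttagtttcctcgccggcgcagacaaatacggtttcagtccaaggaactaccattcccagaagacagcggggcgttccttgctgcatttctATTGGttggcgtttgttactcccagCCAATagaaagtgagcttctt

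The transcribed end of the MED24 entry was not found in a MED24 transcript of GENCODE release 29, while those of the other 3 were found in theirs. The MED17 window held the ETS core at 2 places, the MED11 window held an NRF1 match, the MED12 window a GC box, and the MED24 window the CCAAT box at 2 places. A member was counted if any of its entries matched, while all promoters were counted entry by entry. The 2 units are therefore not alike, and MED7 and MED15, with 2 entries each, had more room for a match. The set of all promoters was also not filtered by gene type or level. The tested members are protein-coding genes with a mean of at least 1 TPM, so the compared sets differ in this too. Among the 22 members with an entry, 14 (63.6%) held a GC box, against 42.6% of all 35116 promoters of the same length. The ETS core was found in 5 members (22.7%, against 8.52% of all promoters), the NRF1 motif in 4 (18.2%, against 5.07%), the CCAAT box in 8 (36.4%, against 32.0%) and the TATA box in 2 (9.09%, against 10.7%). The ETS core stood in MED7, MED15, MED17, MED18 and MED31, which include members from both ends of the order of changes. The median GC content was 58.2% in the members and 58.0% in all promoters, and the median number of CG pairs was 17 in the members and 11 in all promoters. A match describes the letters of the window and is neither a site nor a cause.

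All 29 tested MED-named subunits fell on TPM after JMC45, and the 30 members together took a much smaller part of the library. The summed level of the 30 members was 179.0 and 178.8 TPM in JMC45, against 652 and 628 TPM in Vehicle, which puts JMC45 at 28.0% of Vehicle. The groups did not overlap, and p was 0.33 by two-sided exact permutation, below which 2 libraries against 2 cannot go. The decreases were not even: on the log2(TPM + 1) scale the head subunits MED17 and MED11 fell the most and the tail subunits MED15 and MED24 the least, while by the ratio of means the middle subunit MED7 (10.9-fold) stood between MED17 (13.2-fold) and MED11 (8.33-fold).

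Of the 29 members with a mean of at least 1 TPM over the 4 libraries, 29 were called lower and 0 higher by limma on log2(TPM + 1) at a Benjamini-Hochberg adjusted p below 0.05, and 0 were higher at an unadjusted p under 0.05. Across all 14018 genes tested the same fit called 80.7% lower and 4.25% higher, so a decrease as such was the common behaviour in these libraries. In all 29 members both JMC45 libraries lay below both Vehicle libraries, as they did for 85.7% of all genes tested. In size, the median member changed by -1.77 on the log2 scale (quartiles -2.20 and -1.34), against -1.10 for all genes tested (quartiles -1.69 and -0.51). Of the members, 24 lay below the median of all genes and 5 above it. A decrease of at least 2 on the log2 scale was seen in 9 members (31.0%) and in 15.4% of all genes tested. The log2(TPM + 1) scale understates decreases of low genes, which are part of all genes tested. The tested members had at least 5.07 TPM in Vehicle (median 20.6), against a median of 16.8 TPM for the tested protein-coding genes. The part of level in this difference was not tested. MED12L, the 30th member, was below the filter and was not tested.

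**Figure D1:**
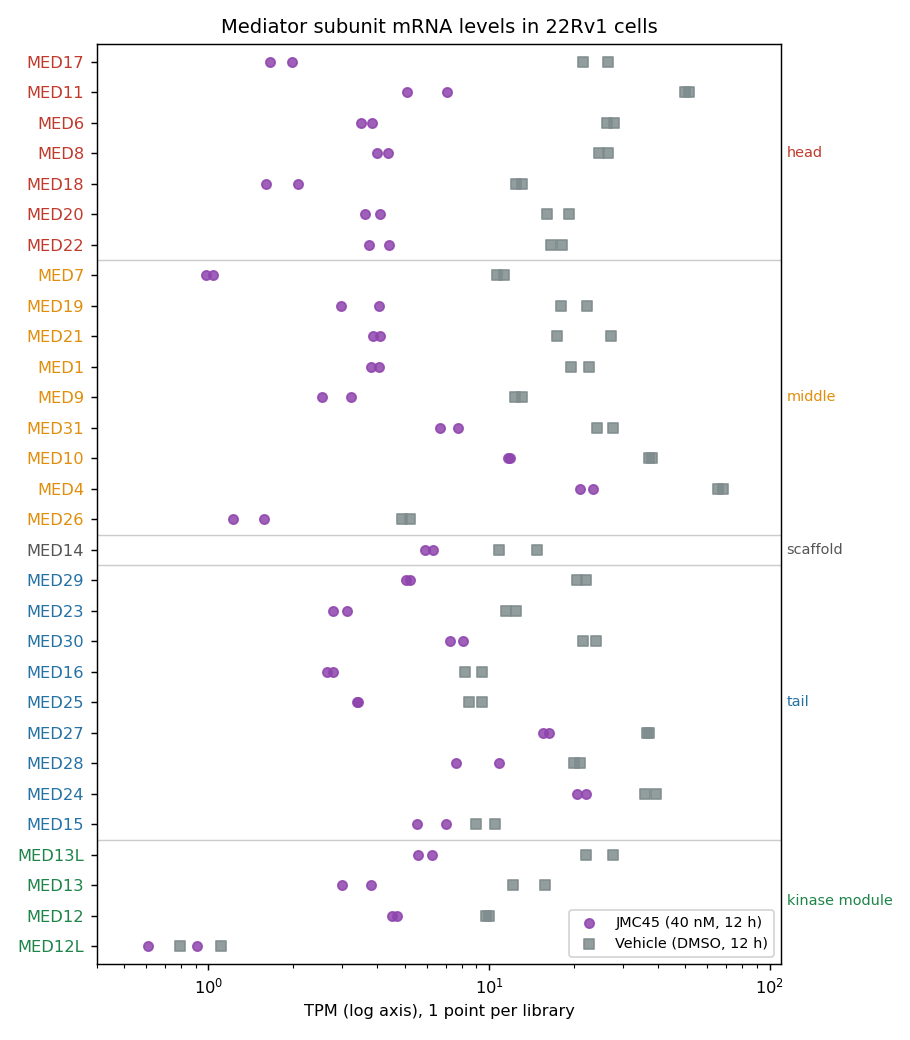
TPM of each of the 30 Mediator subunits on a log axis, with 1 point per library, purple circles for JMC45 and grey squares for Vehicle, grouped by module and ordered by change. The JMC45 points lie left of the Vehicle points in every row except MED12L, where they overlap, and the widest gap is that of MED17.

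Because most genes moved down on TPM, the result depends on how libraries are scaled. Median-of-ratios scaling, which gives each library 1 factor so that the typical gene does not change, put the median of all genes at -0.02 and that of the members at -0.60. It called 19 members lower and 2 higher, against 35.5% lower and 34.9% higher among all genes tested. Quantile normalization put the median of all genes at 0.02 and that of the members at -0.46, and called 18 members lower and 3 higher, against 32.8% and 33.6% of all genes. Under both of these scalings 17 members were lower, namely all 7 head subunits, 6 of the middle (MED1, MED7, MED9, MED10, MED19 and MED21), MED23 and MED29 of the tail, and MED13 and MED13L of the kinase module. The share of all genes tested that was lower under both was not computed. It cannot exceed the 32.8% lower after quantile normalization. Leaving out the mitochondrially encoded genes left 29 members lower, against 76.4% lower and 6.01% higher among all genes, and holding their total equal also left 29 lower, against 90.5% lower and 1.29% higher.

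The head, which sits on the polymerase and the initiation factors, had the lowest median change of the modules. Its 7 members changed by -3.15 to -1.87 (median -2.36). After median-of-ratios scaling 7 of 7 were also called lower (median -1.20), against 35.5% of all genes tested. The same 7 were called lower after quantile normalization (median -1.04), against 32.8% of all genes. Counting MED27 to MED30 with the head, as in some groupings, would add MED29, which was also lower under both scalings, and MED27, MED28 and MED30, which were not called under either. MED17, the architectural subunit of the head, measured 1.98 and 1.66 TPM in JMC45, against 26.5 and 21.6 TPM in Vehicle. Both JMC45 libraries were far below both Vehicle libraries, and the ratio of means was 13.2-fold, the widest of any member. Its change was -3.15 on the log2 scale (SE 0.14, limma adjusted p = 1.33e-05).

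MED11, a small subunit that pairs with MED22, measured 7.07 and 5.11 TPM in JMC45, against 49.9 and 51.5 TPM in Vehicle. It fell by 2.88 on the log2 scale (SE 0.14, limma adjusted p = 1.57e-05). Its partner MED22 measured 4.40 and 3.73 TPM in JMC45, against 18.2 and 16.7 TPM in Vehicle, a log2 change of -1.87. In mean level the pair thus stood 6.09 to 4.07 TPM, MED11 to MED22, in JMC45, and 50.7 to 17.4 TPM in Vehicle.

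MED6, at the junction of head and middle, measured 3.84 and 3.50 TPM in JMC45, against 26.25 and 28.0 TPM in Vehicle (log2 change -2.59, SE 0.11, limma adjusted p = 1.11e-05). MED8 measured 4.36 and 4.00 TPM in JMC45, against 24.6 and 26.6 TPM in Vehicle (log2 change -2.36, SE 0.11, limma adjusted p = 1.27e-05). Neither gene overlapped between groups. MED18 and MED20, which in yeast form the movable jaw of the head, fell by 2.28 and 1.95 on the log2 scale. MED18 measured 1.61 and 2.08 TPM in JMC45, against 12.5 and 13.1 TPM in Vehicle, and MED20 measured 4.08 and 3.60 TPM in JMC45, against 19.3 and 16.1 TPM in Vehicle.

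**Figure D2:**
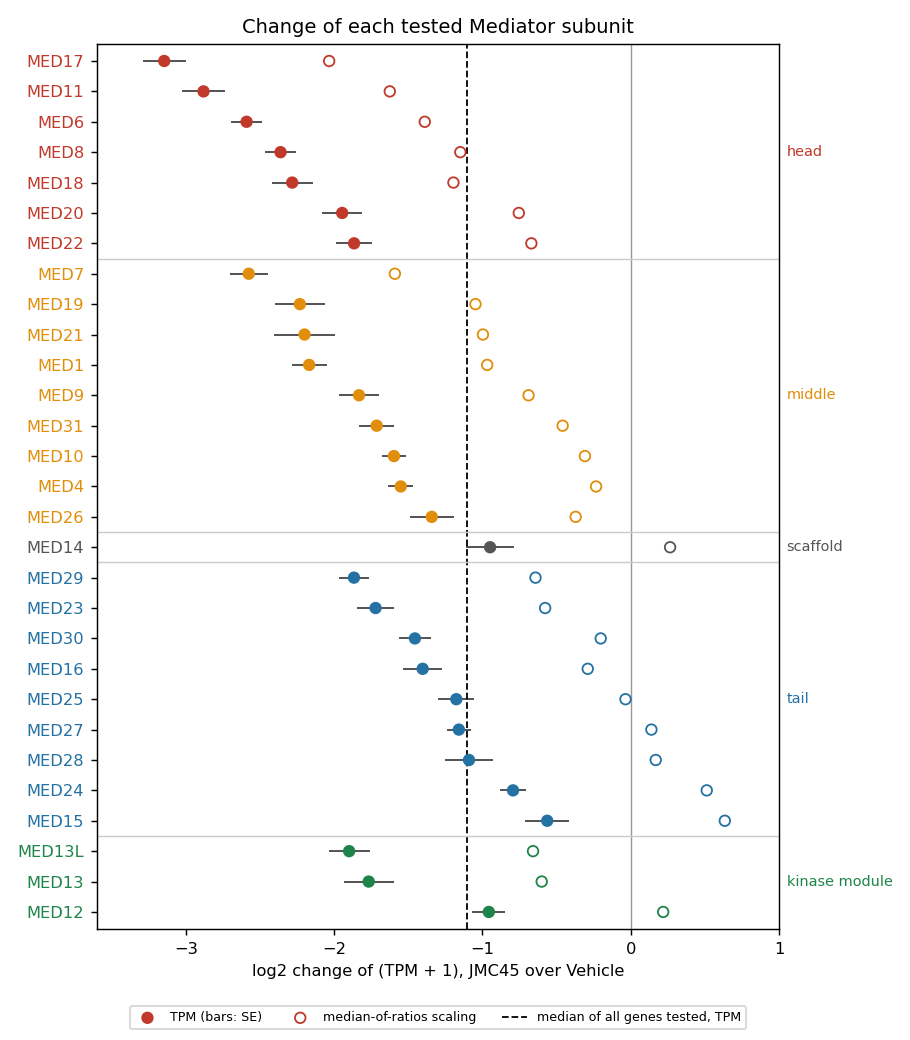
Log2 change of (TPM + 1), JMC45 over Vehicle, for the 29 tested subunits by module: filled points with SE bars on TPM, open points after median-of-ratios scaling, and a dashed line at the median of all genes tested on TPM (-1.10). The 7 head points run from -3.15 to -1.87 and stay below 0 after scaling, while 4 tail points, MED14 and MED12 lie above 0 after scaling.

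The middle module links the head to the kinase module and to elongation factors. Its 9 members changed by -2.58 to -1.34 (median -1.83), and after median-of-ratios scaling 8 of 9 were called lower, against 35.5% of all genes tested. After quantile normalization 7 of 9 were called lower, against 32.8% of all genes, and MED26 and MED31 were not called. MED7, which in yeast forms the hinge of the middle with MED21, measured 0.98 and 1.04 TPM in JMC45, against 10.7 and 11.3 TPM in Vehicle. This was a 10.9-fold ratio of means (log2 change -2.58, SE 0.13, limma adjusted p = 1.53e-05). The low JMC45 level makes the log2(TPM + 1) scale understate it: with a pseudocount of 0.1 the change was -3.32, beyond MED11 (-3.06), MED6 (-2.85) and MED8 (-2.59) of the head and short of MED17 (-3.65). MED21 measured 4.09 and 3.86 TPM in JMC45, against 27.3 and 17.5 TPM in Vehicle, where the 2 libraries were far apart (log2 change -2.20, SE 0.21).

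MED1, the nuclear receptor partner, measured 3.78 and 4.05 TPM in JMC45, against 22.7 and 19.6 TPM in Vehicle (log2 change -2.17, SE 0.12, limma adjusted p = 1.91e-05). After median-of-ratios scaling its change was -0.97. MED26, the docking subunit for elongation complexes, was the scarcest tested member in Vehicle. It measured 1.58 and 1.22 TPM in JMC45, against 5.24 and 4.90 TPM in Vehicle (log2 change -1.34, SE 0.15, limma adjusted p = 0.000256), the smallest decrease of the middle on this scale. With a pseudocount of 0.1 its change was -1.79, beyond that of MED4, and after quantile normalization it was -0.13 and not called.

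The other middle subunits lay between these. MED19 changed by -2.23, MED9 by -1.83, MED31 by -1.71, MED10 by -1.60 and MED4 by -1.55. MED4 was the most abundant member in both groups, with 21.1 and 23.4 TPM in JMC45, against 68.5 and 65.5 TPM in Vehicle, and it was not called after median-of-ratios scaling (-0.23).

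MED14, the backbone of the complex, measured 6.31 and 5.89 TPM in JMC45, against 14.8 and 10.9 TPM in Vehicle. The groups did not overlap, and the decrease (log2 change -0.95, SE 0.16, limma adjusted p = 0.00178) was smaller than the median change of all genes. It was 0.26 and not called after median-of-ratios scaling, and 0.41 and called higher after quantile normalization.

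The tail, which receives activators, lay close to the general shift. Its 9 members fell by 0.56 to 1.87 on the log2 scale (median -1.18), against -1.10 for all genes tested. After median-of-ratios scaling 2 were lower, 2 higher and 5 not called, against 35.5% lower and 34.9% higher among all genes tested. MED15, known for binding the sterol regulator SREBP, had the smallest change of all tested members. It measured 7.01 and 5.53 TPM in JMC45, against 10.5 and 8.97 TPM in Vehicle (log2 change -0.56, SE 0.15, limma adjusted p = 0.0122). The call was lost without Vehicle replicate 1 (-0.46, limma adjusted p = 0.0986) and without JMC45 replicate 2 (-0.42, limma adjusted p = 0.0808), and MED15 was called higher after median-of-ratios scaling (0.63) and quantile normalization (0.80).

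MED24 measured 20.6 and 22.1 TPM in JMC45, against 36.1 and 39.4 TPM in Vehicle (log2 change -0.79, SE 0.09, limma adjusted p = 0.000246), and its change was 0.51 and called higher after median-of-ratios scaling. MED28 measured 7.65 and 10.9 TPM in JMC45, against 21.0 and 20.1 TPM in Vehicle (log2 change -1.09, SE 0.16, limma adjusted p = 0.000955), and its change was 0.17 and not called after median-of-ratios scaling. Among the other tail members, MED29 and MED23, a target of growth factor signalling through ELK1, changed by -1.87 and -1.72 and remained lower under both scalings. MED30 (-1.46), MED16 (-1.40), MED25 (-1.18) and MED27 (-1.16) were called lower on TPM and were not called in either direction under those scalings.

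The kinase module split. MED13L, a paralog of MED13, measured 5.56 and 6.26 TPM in JMC45, against 27.7 and 22.1 TPM in Vehicle (log2 change -1.90, SE 0.14, limma adjusted p = 4.68e-05). MED13, which joins the module to the rest of Mediator, measured 3.78 and 3.00 TPM in JMC45, against 15.8 and 12.2 TPM in Vehicle (log2 change -1.77, SE 0.17, limma adjusted p = 0.000136). MED12, which activates CDK8, measured 4.71 and 4.50 TPM in JMC45, against 9.77 and 9.99 TPM in Vehicle (log2 change -0.96, SE 0.11, limma adjusted p = 0.000325). The MED12 change was 0.22 and not called after median-of-ratios scaling, and 0.41 and called higher after quantile normalization. MED12L measured 0.61 and 0.91 TPM in JMC45, against 1.11 and 0.79 TPM in Vehicle, so its groups overlapped.

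The catalytic partners of that module, which carry no MED name, fell as well, 3 of 3 on TPM, where 80.7% of all genes tested were lower. CDK8 measured 2.73 and 1.82 TPM in JMC45, against 10.2 and 10.1 TPM in Vehicle (log2 change -1.78, SE 0.17, limma adjusted p = 0.000129). CDK19, its close relative, measured 15.0 and 14.7 TPM in JMC45, against 41.1 and 36.7 TPM in Vehicle (log2 change -1.33, SE 0.09, limma adjusted p = 3.74e-05). CCNC, which encodes cyclin C, measured 23.3 and 22.4 TPM in JMC45, against 58.2 and 54.6 TPM in Vehicle (log2 change -1.27, SE 0.08, limma adjusted p = 2.52e-05). After median-of-ratios scaling CDK8 was called lower (-0.69), while CDK19 (-0.03) and CCNC (0.048) were not called. After quantile normalization it was CCNC that was called lower (-0.26, limma adjusted p = 0.0168), while CDK8 (-0.44, limma adjusted p = 0.0521) and CDK19 (-0.19, limma adjusted p = 0.0751) were not.

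Shares of the summed TPM of the MED-named members do not depend on a factor per library. They weigh abundant genes most, and those of the head and tail differed most between the groups. Head transcripts made up 15.3% and 13.2% of the summed Mediator TPM in JMC45, against 27.2% and 27.6% in Vehicle. Tail transcripts made up 41.0% and 42.5% in JMC45, against 27.4% and 28.5% in Vehicle. The middle held 32.4% ± 0.509 in JMC45 and 34.9% ± 0.105 in Vehicle (SD, n = 2 each), and MED14 alone held 3.41% ± 0.164 in JMC45 and 2.00% ± 0.384 in Vehicle. In these 4 cases no JMC45 library overlapped a Vehicle library, and each exact permutation p was 0.33, again the lowest possible. The MED-named genes of the kinase module held 8.19% and 8.20% in JMC45, against 8.35% and 7.17% in Vehicle, so the groups overlapped (exact permutation p = 1.00). CDK8, CDK19 and CCNC are not part of this sum. CDK19 and CCNC each had a higher mean level than any MED-named gene of the module, in both groups. A share of the module with these genes was not computed. The mean log2 TPM of the head minus that of the tail, a measure chosen after the values were seen, was -0.89 and -1.02 in JMC45, against 0.43 and 0.40 in Vehicle (difference -1.37, exact permutation p = 0.33). Where MED27 to MED30 are counted with the head, that difference was -0.99, and the difference in percentage points was -7.78 for the head share (otherwise -13.2) and 8.42 for the tail share (otherwise 13.8). Every head member held a smaller share in JMC45, but the tail was not uniform. MED24 held 11.9% in JMC45 and 5.91% in Vehicle, and MED27 held 8.93% in JMC45 and 5.77% in Vehicle. MED23 (1.64% in JMC45, 1.87% in Vehicle) and MED29 (2.86% in JMC45, 3.33% in Vehicle) held less, and the other tail members held more.

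**Figure D3:**
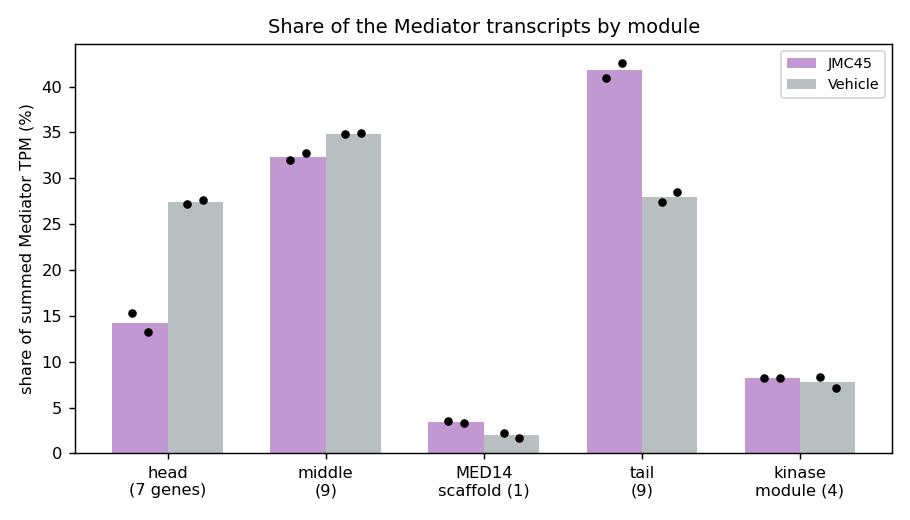
Share of the summed TPM of the 30 MED-named Mediator subunits held by each module, in percent, with bars for group means (n = 2 libraries each), points for libraries, JMC45 in purple and Vehicle in grey. CDK8, CDK19 and CCNC are not counted. The head bar is 14.3% in JMC45 and 27.4% in Vehicle, and the tail bar is 41.8% in JMC45 and 28.0% in Vehicle.

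The order of levels among members changed accordingly. MED4 was the most abundant in both groups. MED11 had rank 10 in JMC45 and rank 2 in Vehicle, MED17 rank 27 in JMC45 and rank 10 in Vehicle, and MED6 rank 19 in JMC45 and rank 6 in Vehicle. In the other direction MED15 had rank 8 in JMC45 and rank 26 in Vehicle, MED12 rank 13 in JMC45 and rank 25 in Vehicle, and MED14 rank 9 in JMC45 and rank 20 in Vehicle. Across the 30 members the ranks of the group means correlated at a Spearman rho of 0.68, a description over genes of the same libraries.

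The paralogous pairs were set side by side as shares of each pair's TPM. MED13L held 59.5% and 67.6% of the MED13 and MED13L sum in JMC45, against 63.6% and 64.5% in Vehicle, so the groups overlapped (exact permutation p = 1.00). CDK8 held 15.4% and 11.0% of the CDK8 and CDK19 sum in JMC45, against 19.9% and 21.6% in Vehicle, with no overlap (exact permutation p = 0.33, the smallest possible). MED12L held 11.5% and 16.8% of the MED12 and MED12L sum in JMC45, against 10.2% and 7.33% in Vehicle, also without overlap (exact permutation p = 0.33), a share that rests on a gene at about 1 TPM or less.

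The genes that work with Mediator were counted in the same fit, and their counts stand beside 80.7% of all genes tested lower on TPM, and 35.5% lower and 34.9% higher after median-of-ratios scaling. Of 18 general transcription factor genes, 18 fell on TPM (median -1.19), led by GTF2E1 (-2.86), a subunit of TFIIE, by GTF2B (-2.83), which encodes TFIIB, and by CDK7 (-2.58), the TFIIH kinase, and after median-of-ratios scaling 5 were lower and 5 higher. Of 12 RNA polymerase II subunit genes, 9 fell (median -0.75), led by the catalytic subunit POLR2A (-2.28), POLR2D (-1.78) and POLR2H (-1.57), and after median-of-ratios scaling 2 were lower and 7 higher. Of 14 elongation partners, 14 fell (median -1.63), led by ELL2 (-2.09), CDK9 (-2.06) and ELL3 (-2.06), and after median-of-ratios scaling 9 were lower. CDK9 itself measured 4.93 and 3.78 TPM in JMC45, against 20.15 and 22.45 TPM in Vehicle, an mRNA value that does not check the loss of its protein. Of 10 genes of cohesin, which is found with Mediator at enhancers, and its regulators, 10 fell (median -1.46), led by SMC3 (-2.68), WAPL (-2.35) and NIPBL (-1.98), and after median-of-ratios scaling 4 were lower and 2 higher. The median of the Mediator members (-1.77) was the lowest of these lists, a difference that was not tested.

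**Figure D4:**
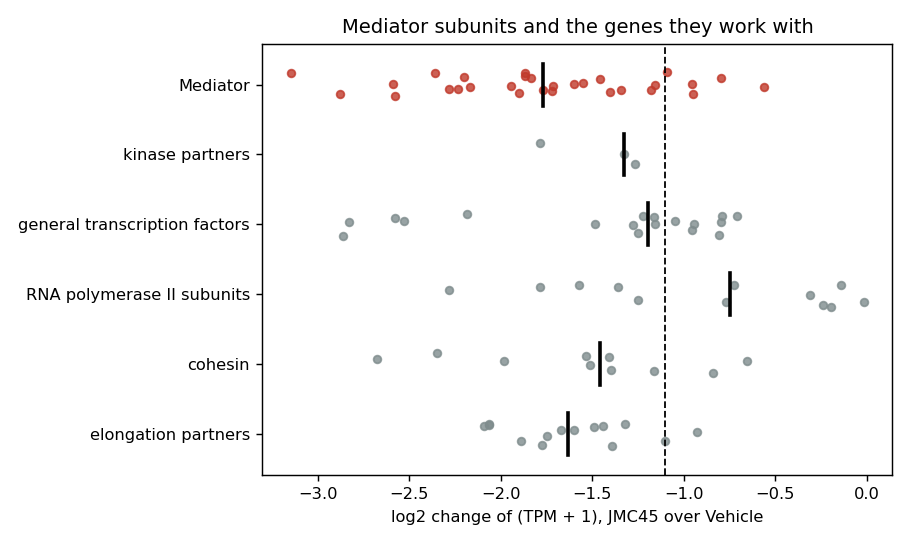
Log2 change of (TPM + 1), JMC45 over Vehicle, for each tested gene of 6 lists (points, spread vertically at random, Mediator in red), with a black bar at each list's median and a dashed line at the median of all genes tested (-1.10). Mediator has its bar at -1.77, and RNA polymerase II subunits have theirs at -0.75, right of the dashed line.

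Gene structure, which played no part in choosing the members, was read from GENCODE release 29. Among the 29 tested members, a longer annotated gene span went with a smaller decrease, with a Spearman rho of 0.44 between span and log2 change, against 0.06 over 11570 tested protein-coding genes. The rho was 0.39 for the number of exons and 0.31 for coding length among the members, against 0.10 and -0.12 over those genes. Properties other than length gave similar values. The rho was 0.35 for transcript GC content among the members, against 0.13 over 11561 protein-coding genes. For promoter GC content it was 0.30 over 21 members. These are descriptions over genes that share the same libraries. The head genes spanned 2183 (MED11) to 30737 bases (MED17) and the middle genes 6714 (MED10) to 54156 bases (MED26). The tail genes spanned 9335 (MED29) to 219802 bases (MED27), so the ranges overlapped. All head genes but MED17, which had the largest decrease, lay below the members' median span of 22105 bases. Of the tail genes, only MED28, MED29 and MED30 lay below it. Span and module thus went together in part, and the part of each in the changes was not tested. MED13L, with the longest span at 323848 bases, and MED13, at 122678 bases, changed by -1.90 and -1.77. The Vehicle level gave a rho of -0.26 with the change among members and 0.02 over protein-coding genes.

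**Figure D5:**
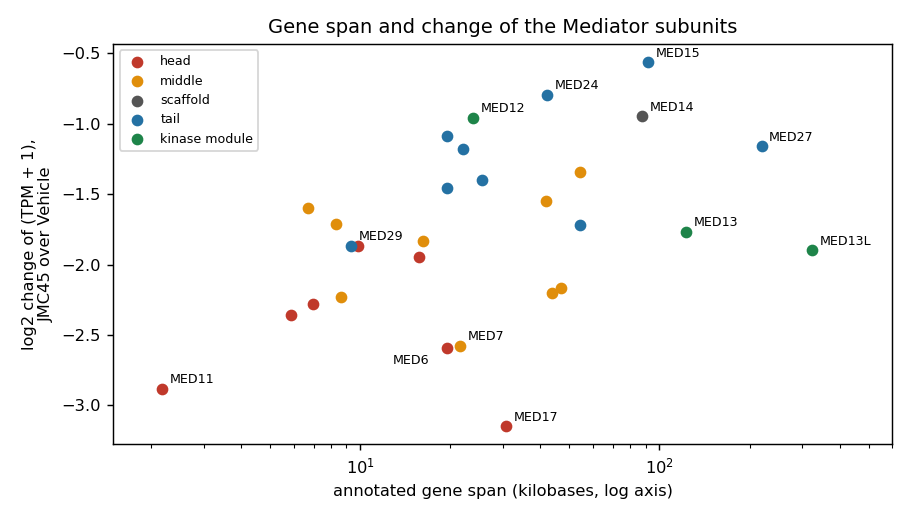
Annotated gene span in kilobases on a log axis against the log2 change of (TPM + 1), JMC45 over Vehicle, for the 29 tested subunits coloured by module. MED11 has the shortest span (2183 bases) at -2.88, MED17 is the lowest point at -3.15 with a span of 30737 bases, and MED15 is highest at -0.56.

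Some members share exonic bases with other genes in GENCODE release 29, and the sources used here do not say whether reads were assigned by strand, so their values are uncertain. MED31 shares 1227 bases with TXNDC17 on the opposite strand, a gene with 178 and 149.8 TPM in JMC45, against 214 and 216 TPM in Vehicle. MED26 shares 705 bases with AC008764.4 on the same strand, which measured 4.45 and 11.9 TPM in JMC45, against 9.41 and 14.4 TPM in Vehicle. MED17 shares 2156 bases with AP001273.2 on the same strand, which measured 0.18 and 0.37 TPM in JMC45, against 2.05 and 3.18 TPM in Vehicle, and 88 bases with TAF1D on the opposite strand. MED25 shares 1438 bases with PTOV1-AS1 on the opposite strand, which measured 0.74 and 0.30 TPM in JMC45, against 4.56 and 4.11 TPM in Vehicle, and MED11 shares 85 bases with CXCL16. The table also held 24 pseudogenes, antisense or divergent transcripts named after members, of which 15 were at 0 in all libraries and the highest reached 0.73 TPM. The part of shared reads in the members' changes was not tested.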

How the data were processed

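RNA of 22Rv1 cells was sequenced after poly(A) selection with a stranded kit, per the labels' protocols, in 2 JMC45 and 2 Vehicle libraries. The values are TPM for each Ensembl gene and library as the authors deposited them, per the file headers. Tools named in the submitters' processing notes are fastp, HISAT2 and StringTie, with neither version nor role. Genome build and annotation: not given in the sources used here. Columns named CTL were assigned to the Vehicle libraries by name and number. Of 63241 genes, 62666 were matched to a symbol, and 50 lines without values were left out.

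Values were tested as log2(TPM + 1) where a gene's mean reached 1 TPM. The test was limma 3.58.1 (R 4.3.3) with a trend on level, two-sided, no replicate block and Benjamini-Hochberg adjustment over 14018 genes. The scale understates changes of low genes. The test was tested on simulated data. Single values per library were compared by exact permutation tests. Python 3.11.15, pandas 2.3.3, scipy 1.17.1 and matplotlib 3.10.9 were used. Alternatives were other pseudocounts, filters and scalings, no trend, the replicate block, another module assignment and each library left out.

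The members, modules and lists were chosen with earlier results of these data known. All members are named. Values per library are given for MED1, MED12, MED12L, MED13, MED13L, MED14, MED26, CDK8, CDK19, CCNC and the 5 members with the largest and the 5 with the smallest decrease. In each other list up to 3 genes with the largest change past the threshold are named. A further marker of the luminal list is not reported here. Values per library for MED4, MED18, MED20, MED21 and MED22 were added after they were seen.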

Additional observations from a re-analysis of the deposited data

How the results depend on the processing

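All 29 tested members stayed lower on TPM with a pseudocount of 0.1, without the intensity trend, without the mitochondrially encoded genes and when that total was kept the same in every library. With the replicate block 29 members were lower, and no call of a member changed. Replicate numbers are the only link between libraries (correlation of deviations -0.05 over 14018 genes), so the block is no pairing. With a mean TPM minimum of 5, which leaves out MED26, 28 were lower, and without a filter 29 of 30 were. Leaving out a library gave 28 to 29 lower and 0 higher, a median of -1.87 to -1.70 and a summed level of 27.4% to 28.5% of Vehicle.

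The count of members moved to 19 lower and 2 higher after median-of-ratios scaling, against 35.5% lower and 34.9% higher among all genes tested. After quantile normalization it was 18 lower and 3 higher, against 32.8% lower and 33.6% higher among all genes. The median was -2.01 with a pseudocount of 0.1, -0.60 after median-of-ratios scaling, -0.46 with quantile normalization and -2.16 when the mitochondrial total was equalized. The summed level in JMC45 was 71.4% of Vehicle by median of ratios, 71.2% by quantiles, 30.9% without the mitochondrially encoded genes and 20.3% when their total was equalized. Median-of-ratios scaling and quantile normalization take out the general shift by construction. The members' values after them are relative to the other genes and are not fixed by that construction.

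Direction turned after median-of-ratios scaling for MED14 (0.26), MED15 (0.63), MED24 (0.51), MED27 (0.14), MED28 (0.17), MED12 (0.22) and CCNC (0.048), and after quantile normalization for MED14 (0.41), MED15 (0.80), MED24 (0.30), MED25 (0.19), MED28 (0.21) and MED12 (0.41). Of these, MED15 and MED24 were called higher in the first setting and MED14, MED15 and MED12 in the second.

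Counting MED27 to MED30 with the head gave differences, JMC45 minus Vehicle, of -7.78 percentage points for the head share, 8.42 for the tail share and -0.99 for head minus tail on the log2 scale. Quantile normalization gave -3.90 points for the middle share and -3.16 for the CDK8 share. Leaving out 1 library gave differences of -14.2 to -12.1 points for the head share, -2.84 to -2.12 for the middle, 1.14 to 1.68 for MED14, 13.0 to 14.6 for the tail, -0.15 to 1.03 for the kinase module, 2.70 to 8.06 for the MED12L share, -4.53 to 3.54 for the MED13L share, -9.75 to -5.37 for the CDK8 share and -1.44 to -1.31 for head minus tail, and 8 to 10 lower calls among RNA polymerase II subunits.

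With median-of-ratios and then quantile scaling, the lower calls were 1 (CDK8) and 1 (CCNC, with CDK8 no longer called) for the kinase partners, 5 and 7 for general transcription factors, 2 and 5 for RNA polymerase II subunits, 4 and 4 for cohesin and 9 and 7 for elongation partners. The higher calls were 5 and 3 for general transcription factors, 7 and 4 for RNA polymerase II subunits, 2 and 0 for cohesin and 0 and 1 for elongation partners. Of all genes tested, 35.5% and 32.8% were lower and 34.9% and 33.6% higher under these scalings, in the same order. The unknown depth limits what can be said of MED12L and other genes near 1 TPM.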
